A study of Mus musculus with 12 samples.

Results

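Of the 23238 gene symbols counted in sorted alveolar type II (ATII) cells of 12 mice, 10 genes of CC chemokines were taken by name, namely Ccl3, Ccl4, Ccl5, Ccl6, Ccl8, Ccl9, Ccl17, Ccl20, Ccl22 and Ccl24. The related genes Ccl2, Ccl7 and Ccl12 were not among them. The study asked whether p300, a histone acetyltransferase that coactivates transcription, acts in ATII cells during lung fibrosis. Each of the 4 groups held 3 mice with 1 library per mouse. Con mice received PBS and BLM mice received 4 mg/kg bleomycin, both into the trachea. The study describes both groups as carrying undeleted p300 alleles. The study's sources differ on these mice. Its results give them as Spc-p300 f/f, with LoxP sites around exon 9 of p300, its supplementary methods name C57BL/6 mice beside the ATII p300 knockouts as the sources for sequencing, all aged 8 to 10 weeks, and the sample titles call the Con mice WT. KO mice (PBS) and KOBLM mice (4 mg/kg bleomycin) were Spc-p300 d/d, in which a tamoxifen-activated Cre under the Spc promoter of ATII cells deletes p300. The protocol attached to every sample names 10 mg/kg tamoxifen at 8 weeks of age before bleomycin, whereas a supplementary legend of the study speaks of vehicle or tamoxifen for the Spc-p300 f/f mice. The day after bleomycin on which cells were taken for sequencing was not given in the sources used here.

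CC chemokines are small secreted proteins with adjacent cysteines near the amino terminus that bind G protein-coupled receptors on leukocytes and draw these cells along a gradient. In the lung they are made by epithelial cells, by macrophages and by dendritic cells, and bleomycin, which breaks DNA and injures the alveolar epithelium, is a standard way to provoke their release. Ccl3, Ccl4 and Ccl5 draw monocytes and T cells. Ccl6 and Ccl9 are rodent ligands of Ccr1 made largely by myeloid cells. Ccl17 and Ccl22 share the receptor Ccr4 of T helper 2 and regulatory T cells, Ccl24 attracts eosinophils through Ccr3, Ccl20 draws Ccr6-bearing cells to mucosal epithelium, and mouse Ccl8 acts on Ccr8.

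Libraries held between 7005005 and 11153154 counts (median 9186234). The kit reads 1 site near the 3′ end of each polyadenylated transcript, so levels are given as CPM (counts in proportion to the library total) with no division by length and with the scaling of edgeR by the trimmed mean of M values (TMM). A library with 3 counts of a gene, the detection floor used here, corresponded to 0.269 to 0.428 CPM of the library total, which covers counting error only. Ep300, the gene of p300, was at 109 ± 53.4 TMM CPM in Con (SD, n = 3) and at 143 ± 46.3 in the libraries labelled KO (SD, n = 3), and the reads of this kit lie downstream of the deleted exon, so that these counts do not test the deletion. The study checked the deletion by immunofluorescence and, by its account, established it by qRT-PCR on sorted ATII cells. Neither was analysed here, and genotypes were taken from the labels and the study's description of its groups. The library labelled BLM 3 stood apart. It had 6847 detected genes against 8790 to 13838 in the other libraries, and its Spearman correlation with BLM 1 and BLM 2, taken across genes that are no independent replicates, was 0.473 and 0.478, against at least 0.693 in all other pairs of a group. The label ATII was checked against markers. All 11 ATII markers had counts in most libraries, but only 8 in BLM 3, KOBLM 2 and KOBLM 3 and 10 in KO 2. Their summed level was 643 to 3643 CPM over the libraries. This sum includes the sort antigens Epcam and Cd74, the latter at 460 to 2247 CPM. Yet 13 alveolar macrophage markers summed to more than the ATII markers in 11 of the 12 libraries. Sftpc, the defining surfactant gene of ATII cells, lay between 0.55 and 612 CPM. Macrophage transcripts were thus abundant in the RNA of the sorted cells, and in bulk RNA fewer cells of a type and less RNA per cell cannot be told apart.

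The 10 genes lie on 4 chromosomes of GRCm38. Ccl3, Ccl4, Ccl5, Ccl6, Ccl8 and Ccl9 lie within the chemokine cluster of chromosome 11, from Ccl8 at 82115185 to 82116799 up to Ccl4 at 83662584 to 83664683. Ccl17 (chromosome 8, 94810453 to 94812036, forward strand, 3 exons) follows Ccl22 (94745590 to 94751699, forward strand, 3 exons) after a gap of 58753 bases. Ccl20 lies on chromosome 1 and Ccl24 on chromosome 5. Promoters of the neighbours Ccl22 and Ccl17 are shown because these genes share a receptor and a chromosomal region while, as described further on, their counts differed. Both runs end at the base before the annotated start of the gene (GENCODE M21), come from the promoter table of RefSeq for GRCm38.p6, and are written 5′ to 3′ on the forward strand, Ccl22 at chr8:94745434-94745589 and Ccl17 at chr8:94810203-94810452. Capitals mark a match to the STAT6 motif TTCNNNNGAA.
Ccl22: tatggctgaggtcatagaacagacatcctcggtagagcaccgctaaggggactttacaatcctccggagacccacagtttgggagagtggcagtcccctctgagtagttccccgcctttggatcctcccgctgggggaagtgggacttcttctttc
Ccl17: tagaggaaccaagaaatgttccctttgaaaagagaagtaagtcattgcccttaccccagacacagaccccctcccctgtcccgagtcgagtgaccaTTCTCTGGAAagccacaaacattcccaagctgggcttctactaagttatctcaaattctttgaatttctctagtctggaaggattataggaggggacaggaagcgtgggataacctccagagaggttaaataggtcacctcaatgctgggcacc

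The 250 bases before the RefSeq start were searched on both strands for 4 motifs in the 7 members with an entry in that table (Ccl3, Ccl6, Ccl8, Ccl9, Ccl17, Ccl20 and Ccl22). For Ccl22 this window ended at 94745683, past the GENCODE start at 94745590. It thus held 156 bases before the GENCODE start, against 250 for Ccl17. The C/EBP motif TTGCNNAA, that of a family of partners of p300, had no match in the 7 members and a match in 9.56% of the 32851 promoters of the table. The STAT6 motif was found in Ccl17 alone, from -154 to -145 with -1 as the last base before the start, and in 5.85% of all promoters. Ccl9 held the AP-1 motif TGANTCA (-53 to -47) and, without overlap, an NF-kB motif (-35 to -26), and Ccl20 held an NF-kB motif (-80 to -71). AP-1 was matched in 6.75% and NF-kB in 7.25% of all promoters. A match is a run of letters and not an occupied site.

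Ccl6 was by far the most abundant of the 10 genes. Its mean over the 12 libraries was 4839 TMM CPM, and in the median library it ranked 10th of all gene symbols. It had more counts than every other member in 12 of 12 libraries. Next in order of the mean came Ccl9 (213 TMM CPM), Ccl17 (177), Ccl3 (123.2), Ccl4 (86.0), Ccl5 (35.7), Ccl22 (22.3), Ccl8 (7.34) and Ccl24 (4.66). This order held poorly from library to library. Ccl17 exceeded Ccl3 in only 4 of the 12 libraries, Ccl4 exceeded Ccl5 in 5, and Ccl8 exceeded Ccl24 in 4, whereas Ccl22 exceeded Ccl8 in 11 and Ccl5 exceeded Ccl22 in 10. Ccl20 had no count in any library, so 9 of the 10 genes passed the low-count filter and were tested.

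**Figure D1:**
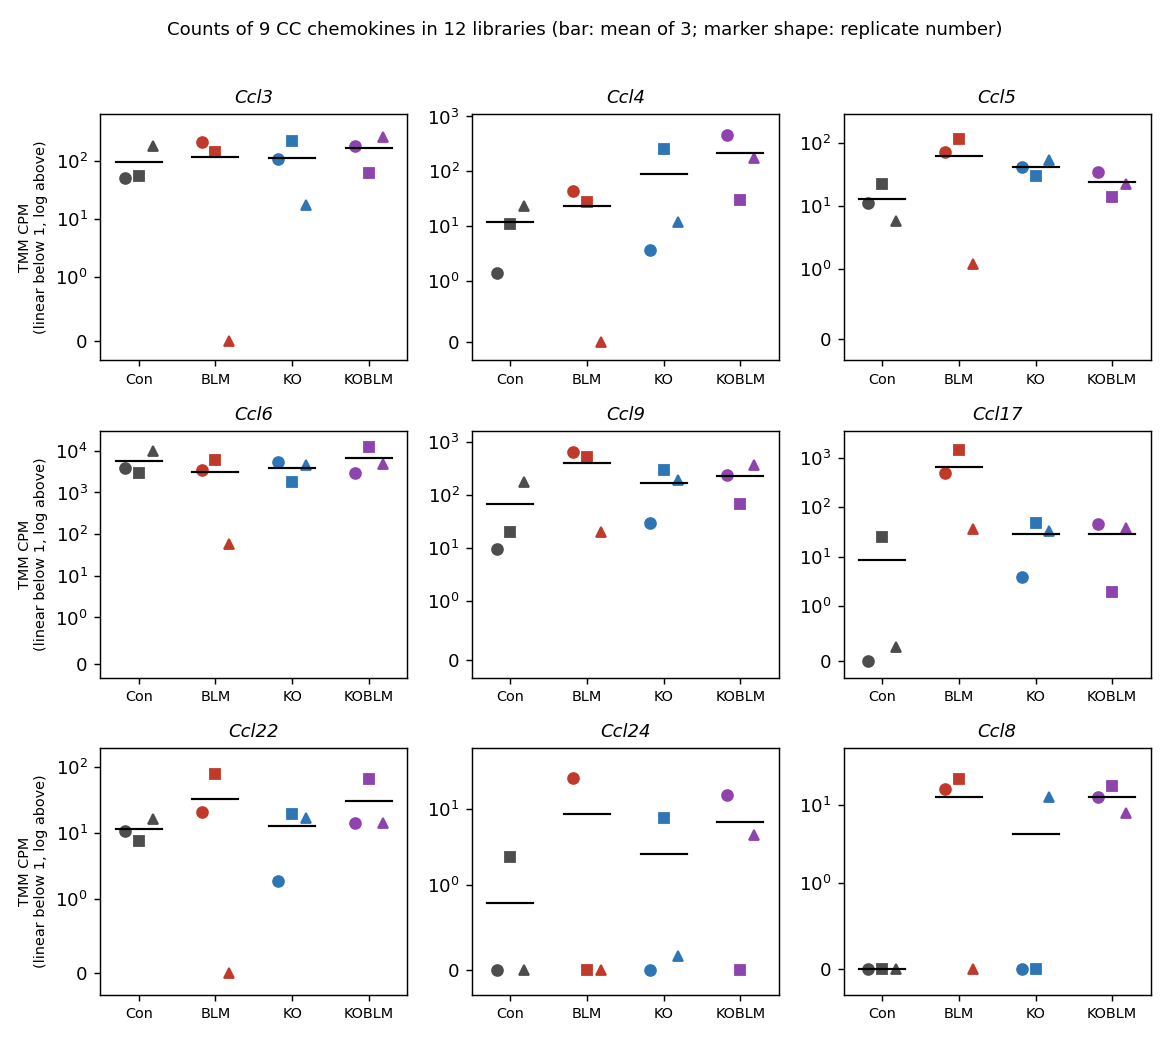
TMM CPM of the 9 detected CC chemokines in each library (y axis linear below 1 and logarithmic above, x axis the 4 groups). Each point is 1 mouse, its shape gives the replicate number and the bar is the mean of 3. BLM 3 (red triangle) is the lowest BLM library in all 9 panels, sharing 0 with BLM 2 for Ccl24.

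The make-up of the chemokine counts was uniform in Con and varied elsewhere. In Con, Ccl6 took 96.5% ± 1.33 (SD, n = 3) of the counts of the 10 genes, with all 3 libraries between 95.3% and 97.9%. In BLM it took 64.4% ± 11.5, with the libraries between 51.1% and 72.0%. In KO it took 85.6% ± 16.0 and in KOBLM 85.7% ± 11.8 (SD, n = 3 each), with single libraries from 67.2% to 96.6% and from 74.3% to 97.9%. The gap to Ccl6 was taken up by Ccl9 and Ccl17 in the BLM libraries and mainly by Ccl9, Ccl3 and Ccl4 in KO 2 and KOBLM 1. These shares describe the members jointly and were not tested.

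**Figure D2:**
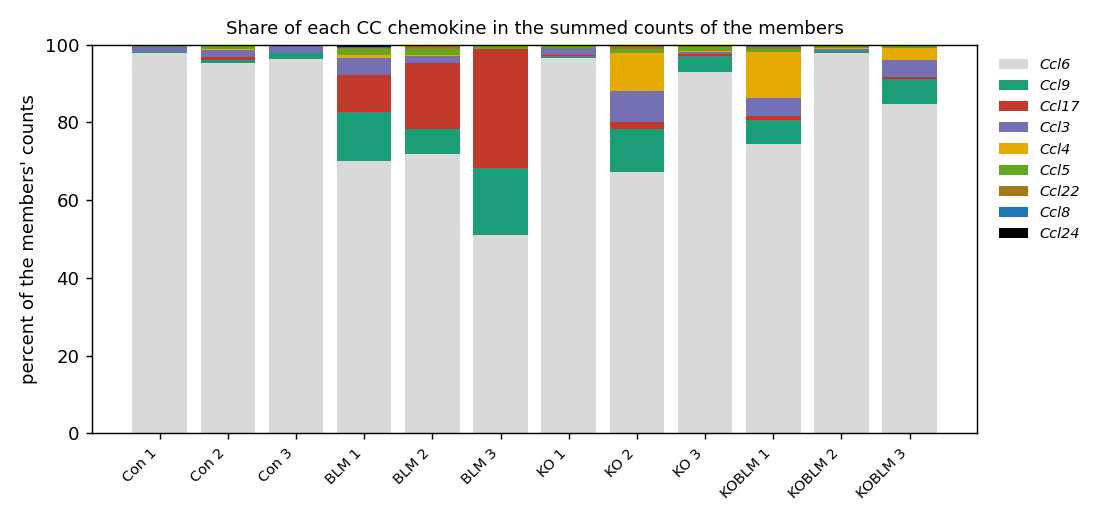
Percent of the summed counts of the members held by each gene (y axis) in each of the 12 libraries (x axis). Ccl6 (grey) holds between 95.3% and 97.9% in Con and between 51.1% and 72.0% in BLM, where Ccl9 (green) and Ccl17 (red) fill most of the rest.

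Bleomycin was compared with PBS in mice with p300 undeleted. Ccl17 was higher in BLM than in Con, 75.6-fold by group means, and Ccl8 was detected in 2 of 3 BLM libraries and in none of Con. These 2 of the 9 tested members, both higher, differed by more than 1.5-fold at an unadjusted p under 0.05 in edgeR's quasi-likelihood test, as did 4.27% of all 13054 tested genes. The log2 fold changes of the members had a median of 2.27 and were positive for 8 of 9, beside a median of -0.08 over all tested genes. No member and no other gene had a Benjamini-Hochberg adjusted p under 0.05 in edgeR, while DESeq2 gave 114 genes under that value, Ccl17 and Ccl8 among them. Groups did not overlap for 1 member, Ccl17, which 15.9% of all tested genes also showed. Without BLM 3, 4 members passed (Ccl5, Ccl8, Ccl9 and Ccl17, all higher), beside 5.45% of all genes.

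Deletion of p300 was compared with its controls in both treatments. Under bleomycin, Ccl17 was lower in KOBLM, as labelled, than in BLM, the only 1 of 9 members to pass, beside 3.16% of all genes. The median log2 fold change of the members was -0.09 (all genes 0.10), and 0 members had groups that did not overlap (10.7% of all genes). Without BLM 3, Ccl5 and Ccl17 passed and both were lower in KOBLM, beside 3.34% of all genes. Under PBS, 1 member passed between KO and Con, Ccl8, all of whose KO counts came from a single library, beside 1.44% of all genes. Groups did not overlap for 1 member, Ccl5, in this comparison (9.09% of all genes). The median log2 fold change of the members was 1.68 (all genes -0.09), with 8 of 9 positive as in BLM against Con.

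Bleomycin was also compared with PBS within the p300-deleted mice, where 0 members passed at an unadjusted p under 0.05 in edgeR or in DESeq2, beside 1.69% of all genes in edgeR, and groups overlapped for all 9 (non-overlap in 6.86% of all genes). The median log2 fold change of the members was 0.77 (all genes 0.08). Of the 9 members, 8 were above 0, but Ccl17 by only 0.0039, too small to be given a direction. The interaction, the difference between the bleomycin effects of the genotypes, passed for 1 member, Ccl17, beside 2.82% of all genes. It passed for 3 members without BLM 3 (Ccl5, Ccl8 and Ccl17, all negative, beside 4.63% of all genes). BLM against Con, KO against Con and KOBLM against BLM share libraries, so their values are not independent of each other.

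**Figure D3:**
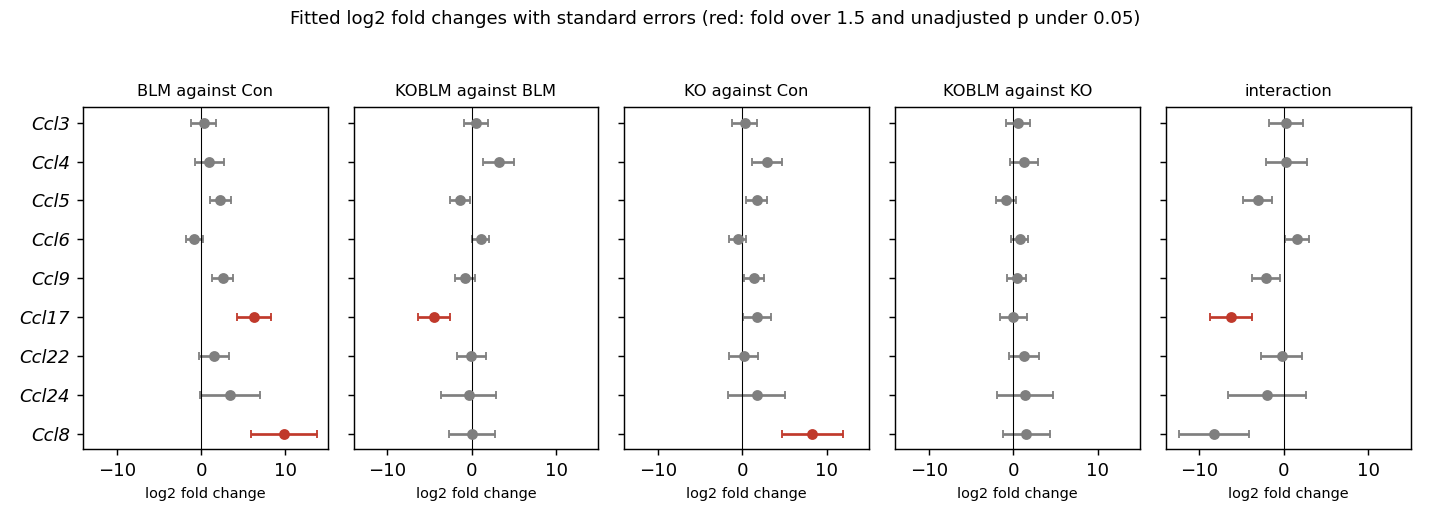
Fitted log2 fold change (x axis) with its standard error (bars) for the 9 tested members (y axis) in the 4 comparisons and the interaction. Red marks members past both thresholds (1.5-fold, unadjusted p under 0.05), which are Ccl17 in 3 panels and Ccl8 in 2.

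Ccl17, also known as thymus and activation-regulated chemokine and typically made by dendritic cells and alternatively activated macrophages, reached the highest level of any member except Ccl6. It stood at 0, 25.3 and 0.26 TMM CPM in Con 1, 2 and 3. In BLM 1, 2 and 3 it stood at 484, 1410.3 and 35.7. All 3 BLM libraries thus lay above all 3 Con libraries, although BLM 3 was only just above Con 2. The KO libraries had 3.92, 48.2 and 33.2 TMM CPM and the KOBLM libraries 45.9, 1.98 and 37.5, so these groups overlapped each other throughout. In raw counts, BLM 2 held 9635 Ccl17 reads and Con 1 none.

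By group, Ccl17 averaged 8.51 ± 14.5 TMM CPM in Con, 643 ± 701 in BLM, 28.4 ± 22.5 in KO and 28.5 ± 23.3 in KOBLM (SD, n = 3 each). The log2 fold change of BLM against Con was 6.24 with a standard error of 2.03 (p = 0.00801 in edgeR and 0.995 after adjustment), and the two-sided exact permutation test gave p = 0.1, the smallest that 3 mice against 3 allow. For KOBLM against BLM it was -4.50 with a standard error of 1.86 (p = 0.0298 in edgeR and 1 after adjustment, exact permutation p = 0.3), a 22.6-fold lower mean with overlap, because BLM 3 lay below KOBLM 1 and KOBLM 3. Between KOBLM and KO the log2 fold change was 0.0039 with a standard error of 1.62 (exact permutation p = 1). The interaction was -6.24 (standard error 2.48, adjusted p = 1 in edgeR). Without BLM 3 the values were 6.80 for BLM against Con (adjusted p = 0.36 in edgeR), -5.06 for KOBLM against BLM and -6.79 for the interaction. Over all omissions of 1 library, BLM against Con ran from 4.93 (without BLM 2) to 12.0 (without Con 2, which leaves Con at 0 and 3 counts) and passed in each. KOBLM against BLM ran from -5.06 to -3.19, and the interaction from -12.0 (without Con 2) to -4.93 (without BLM 2). The call in KOBLM against BLM was lost without BLM 2 (-3.19), KOBLM 2 (-3.95) or KOBLM 3 (-4.75), and in the fit with a replicate block (-3.13). The direction was kept in all 4. DESeq2 gave Ccl17 an adjusted p of 0.0094 for BLM against Con and of 0.305 for KOBLM against BLM.

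Summed markers of other cell types also varied between the libraries, some along with Ccl17 and some not. The 12 dendritic cell markers, of which Il4i1 had no count in any library, summed to 70.5 to 158 CPM in the Con libraries, 305 to 586 CPM in BLM, 37.6 to 120.0 CPM in KO and 73.3 to 220 CPM in KOBLM. BLM 2, the library with the most Ccl17, also had the highest dendritic cell sum. KOBLM 2, in contrast, had a sum of 220 CPM with Ccl17 at 1.98 TMM CPM. The defining dendritic cell gene Zbtb46 was at 0 in 9 of 12 libraries and Flt3 in 6. The 15 markers of recruited or interstitial macrophages and monocytes, all detected, lay between 697 and 1211 CPM in Con, between 707 and 8502 in BLM, between 792 and 13242 in KO and between 941 and 8528 in KOBLM. These sums were high in BLM 1, BLM 2, KO 2 and KOBLM 3 and low in BLM 3, while Ccl17 in KO 2 and KOBLM 3 stayed under 50 TMM CPM. The 13 alveolar macrophage markers ran the other way, at 13202 to 25965 CPM in Con, 940 to 7129 CPM in BLM, 8100.4 to 42767 CPM in KO and 8064 to 22522 CPM in KOBLM. Sums of 6 fibroblast markers were at 64.3 to 424 CPM (Con), 912 to 1397 (BLM), 33.0 to 411 (KO) and 116 to 587 (KOBLM). Those of 6 alveolar type I markers were at 163 to 268 CPM (Con), 487 to 721 (BLM), 51.5 to 461 (KO) and 98.5 to 373 (KOBLM). BLM was thus apart from both Con and KOBLM in these 3 sums and in the dendritic cell sum, as a group and without overlap. In BLM 3, however, only 3 dendritic cell markers and 2 fibroblast markers had a count, so its sums rest on few genes. The 7 neutrophil markers overlapped between BLM (140.0 to 5767 CPM) and each other group (113 to 3702 in Con, 326 to 791 in KO, 1279 to 2140.1 in KOBLM). The part of these cells in the Ccl17 counts was not tested.

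**Figure D4:**
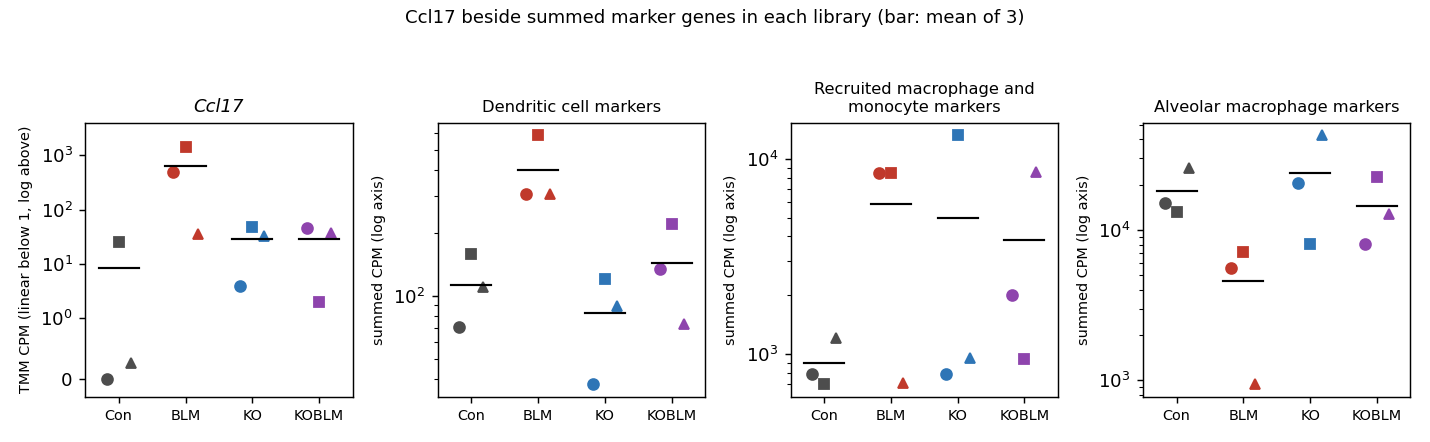
Ccl17 in TMM CPM (linear below 1, logarithmic above) and the summed CPM of 3 marker lists (logarithmic axes) in each library of the 4 groups (x axis), with bars for the mean of 3. Both Ccl17 and the dendritic cell sum are above all Con libraries in the 3 BLM libraries, and the recruited macrophage sum reaches 13242 CPM in KO 2, where Ccl17 is at 48.2. In BLM 3 the dendritic cell sum comes from 3 markers.

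Ccl22, macrophage-derived chemokine and the other Ccr4 ligand, did not share this pattern. It was at 10.8, 7.66 and 16.7 TMM CPM in Con and at 21.2, 78.6 and 0 in BLM. KO libraries had 1.90, 19.9 and 17.4 and KOBLM libraries 14.2, 65.6 and 14.2. The highest libraries were BLM 2 and KOBLM 2, and all groups overlapped. Its log2 fold change was 1.505 for BLM against Con (standard error 1.76, exact permutation p = 0.6) and -0.09 for KOBLM against BLM (standard error 1.72, exact permutation p = 1). Across the 12 libraries the log2 levels of Ccl17 and Ccl22 had a Pearson r of 0.24, given as a description. Their receptor Ccr4 had at most 2.54 TMM CPM in any library and was not tested.

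Ccl9 was the second most abundant member. In Con it read 9.66, 19.9 and 172 TMM CPM. In BLM it read 642, 515 and 19.9. Con 3 and BLM 3 lay far from the other 2 libraries of their groups, in opposite directions, and the groups overlapped on that account. KO libraries were at 29.8, 288 and 191 and KOBLM libraries at 240.0, 68.4 and 361 TMM CPM. Group means were 67.1 ± 90.7 in Con, 392.4 ± 329 in BLM, 169 ± 130 in KO and 223 ± 147 in KOBLM (SD, n = 3 each). The log2 fold change of BLM against Con was 2.55 with a standard error of 1.24 (p = 0.058 in edgeR and 0.995 after adjustment, exact permutation p = 0.2), which missed the threshold. Without BLM 3 it was 3.11 (adjusted p = 0.581) and without Con 3 it was 4.73 (adjusted p = 1), both past the unadjusted threshold of edgeR. It also passed without the low-count filter (2.497), in the fit with a replicate block (3.42) and in DESeq2 (2.52, adjusted p = 0.552). KOBLM against BLM gave -0.81 (standard error 1.18, exact permutation p = 0.5).

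Ccl6, the neighbour of Ccl9 and a product of resting as well as activated macrophages, was abundant with and without bleomycin. Con libraries had 3908, 2905 and 10123 TMM CPM, and BLM libraries 3542, 5937 and 59.5. KO libraries had 5366, 1770.4 and 4516, and KOBLM libraries 2877, 12136 and 4924. Leaving BLM 3 aside, the other 11 libraries spanned 1770.4 to 12136 TMM CPM with overlap of all groups. Log2 fold changes lay at -0.83 for BLM against Con (standard error 0.999), 1.06 for KOBLM against BLM (standard error 1.004), -0.54 for KO against Con (standard error 0.995) and 0.77 for KOBLM against KO (standard error 0.998). None passed the threshold, with exact permutation p of 0.5 to 0.7. BLM 3, the library with the least Ccl6, also had the lowest alveolar macrophage sum (940 CPM) and the lowest leukocyte sum (534 CPM, against at least 3710 elsewhere). Their part in the Ccl6 counts was not tested.

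Ccl5, RANTES, a product of activated T cells, NK cells and stimulated epithelium, was detected in 12 of 12 libraries at low levels. It stood at 11.4, 22.1 and 5.88 TMM CPM in Con and at 71.6, 118 and 1.21 in BLM. KO libraries were at 41.6, 30.6 and 54.8, all above the Con libraries, and KOBLM libraries at 35.4, 14.0 and 22.1. The log2 fold change was 2.27 for BLM against Con (standard error 1.25, p = 0.0892 in edgeR, exact permutation p = 0.4) and 1.69 for KO against Con (standard error 1.22, p = 0.189 in edgeR, exact permutation p = 0.1). Without BLM 3, Ccl5 passed in BLM against Con at 2.85 (adjusted p = 0.456), in KOBLM against BLM at -1.99 (adjusted p = 1) and in the interaction at -3.67 (adjusted p = 1). The 14 markers of T and NK cells, Ccr4 included, summed to between 28.8 and 84.7 CPM in Con, 0.09 and 94.5 in BLM, 21.8 and 167 in KO, and 21.0 and 180.4 in KOBLM, with the lowest value in BLM 3, and their part was not tested.

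Ccl3 and Ccl4, macrophage inflammatory proteins 1-alpha and 1-beta, are neighbours on chromosome 11. Ccl3 was at 49.8, 55.4 and 181 TMM CPM in Con, 212, 142 and 0 in BLM, 106, 216 and 17.4 in KO and 177, 62.5 and 261 in KOBLM. Every pair of groups overlapped for Ccl3, and its 4 log2 fold changes lay between 0.24 and 0.56 with standard errors of 1.44 to 1.45. Ccl4 varied far more. It was at 1.40, 10.8 and 23.9 TMM CPM in Con, 43.4, 27.7 and 0 in BLM, 3.70, 253 and 12.1 in KO and 453, 29.5 and 174 in KOBLM. The highest Ccl4 values were thus in KOBLM 1, KO 2 and KOBLM 3. Its log2 fold change of KOBLM against BLM, 3.21 with a standard error of 1.82 (p = 0.0995 in edgeR, exact permutation p = 0.2), was the largest increase of any member in that comparison and missed the threshold, which it passed with DESeq2 (3.26, adjusted p = 0.774) and without the low-count filter. KO against Con gave 2.89 (standard error 1.80, exact permutation p = 0.6), which became -0.56 when KO 2 was left out.

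Ccl8, monocyte chemotactic protein 2, was a gene of presence and absence. It had no count in Con 1, 2 or 3. BLM libraries had 110, 147 and 0 counts, KO libraries 0, 0 and 152, and KOBLM libraries 91, 185 and 64. Con was the only group with no Ccl8 at all and KOBLM the only one with Ccl8 in every library. Against the floor of 3 counts per library, the mean of Con was exceeded at least 38.7-fold in BLM (p = 0.0254 in edgeR and 0.995 after adjustment, exact permutation p = 0.4) and at least 13.1-fold in KO (p = 0.0402 in edgeR and 1 after adjustment, exact permutation p = 1). The second of these rests on KO 3 alone, and without it Ccl8 had no count in Con or KO. Both calls were lost when any 1 Con library was left out, although all 3 were at 0. DESeq2 gave Ccl8 adjusted p = 5.4e-12 for BLM against Con, adjusted p = 2.39e-10 for KO against Con and adjusted p = 4.92e-05 for the interaction, each fitted against Con libraries at 0. KOBLM, at 12.6 ± 4.85 TMM CPM, and BLM, at 12.5 ± 11.2 (SD, n = 3 each), gave a log2 fold change of 0.02 with a standard error of 2.73. KOBLM against KO gave 1.58 (standard error 2.79, exact permutation p = 0.2), and passed without KO 3, when the 2 KO libraries left had no Ccl8. Its receptor Ccr8 had no count in any library.

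Ccl24, eotaxin-2, was detected above the floor in 5 of 12 libraries. Its counts were 0, 22 and 0 in Con, 177, 0 and 0 in BLM, 0, 46 and 2 in KO and 111, 0 and 38 in KOBLM. No group had Ccl24 in all of its libraries, and none of its comparisons passed in edgeR, with exact permutation p from 0.7 to 1 in the 4 comparisons. Ccl20 had 0 counts in 12 of 12 libraries, which at 3 counts allows up to 0.269 to 0.428 CPM in a library. A change of Ccl20 below that level was not detectable at this depth.

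The atypical receptors and other ligands of the family gave few calls. Of 5 atypical or scavenging receptors, 4 were tested, and Ackr3, which binds CXC chemokines rather than the members, was the only one to pass. It passed as lower in KO, where libraries had at most 0.11 TMM CPM, than in Con (11.3 ± 9.74, SD, n = 3), as higher in KOBLM (22.8 ± 25.9, SD, n = 3) than in KO, and as positive in the interaction, with adjusted p = 1 for each in edgeR. Of 10 other CC ligands, 5 were tested and Ccl1, Ccl19 and Ccl26 had no count. Ccl21a, a lymphatic ligand of Ccr7 whose near-identical copies Ccl21b and Ccl21c make its counts uncertain, passed in the interaction alone (6.24, adjusted p = 1 in edgeR). Ccl7, from the same cluster of chromosome 11 as Ccl8, likewise had no count in Con and passed in BLM against Con, in KO against Con, where its counts were 0, 345 and 0, and in the interaction, with adjusted p of 0.995, 1 and 1 in edgeR. Ccl2 and Ccl12 passed in BLM against Con alone (adjusted p = 0.995 for both in edgeR).

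For the 7 members with a mean of at least 10 TMM CPM, the genes with the most similar log2 levels over the 12 libraries were found by Pearson correlation, as a description without a test. Ccl17 was most like C1qc, a complement gene of tissue macrophages in the recruited macrophage list (r = 0.94, Spearman rho 0.99, and r = 0.91 without the 2 libraries farthest from the median of Ccl17), followed by Runx3 (0.89) and AA467197 (0.88). Ccl9 was most like the leukocyte gene Cd52 (r = 0.93, and 0.95 without 2 libraries), then Slc31a1 and Acta2. Ccl6 followed Mcts1, Tbxas1 and Ubl5 at r of 0.98 for each, and Ccl3 followed Xdh, Atp5e and Map7d1 at 0.96 to 0.97. Both members were lowest in BLM 3, and without that library the values were 0.83 to 0.92 for Ccl6 and 0.85 to 0.92 for Ccl3. Without the 2 farthest libraries they were 0.77 to 0.88 and 0.68 to 0.83. Ccl5 was most like Tspan4 (0.94), Ccl22 most like Ifit1 (0.92, and 0.70 without 2 libraries), and Ccl4 most like Wdr89 and Rplp2-ps1 (0.92 each), a pair with nearly equal counts that may share reads, and then Pla2g7 (0.92). Each r was the highest of 13053 candidates, and all genes of a library share its depth and its mix of cells.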

How the data were processed

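RNA of sorted CD74+ EpCAM+ cells from 3 mice in each of 4 groups was made into QuantSeq 3′ libraries and sequenced as single-end reads. The authors deposited raw counts, the reads counted per gene symbol without normalization. The submitters' processing notes name Bowtie2, edgeR and mm10. Annotation and the treatment of reads with several matches are not given in the sources used here. Counts of 79 entries sharing 35 symbols were summed. Groups were taken from the labels. The 10 members and all gene lists were chosen with earlier results of these data known.

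Genes were filtered by group with filterByExpr, scaled by TMM and fitted in 1 quasi-likelihood model of the 4 groups with edgeR 4.0.16 (8 residual degrees of freedom), which was tested on simulated data. The biological coefficient of variation was 1.44. The study's threshold, a fold change over 1.5 and p under 0.05, was applied to unadjusted two-sided p-values. Benjamini-Hochberg adjusted values are over all tested genes. Standard errors are the log2 fold change divided by the square root of F and are approximate. TMM CPM of single genes were compared by exact permutation tests. Marker sums are in CPM of the library total. All 10 members and the lists of atypical receptors and other ligands were named by rule, a list of further receptors is not reported here, and the 3 most alike genes were chosen by correlation of log2(TMM CPM + 1). P-values weigh a difference between groups against the spread between libraries, of which there was 1 per mouse. Alternatives were DESeq2 size factors, library size alone, no filter, the replicate number as a block, 2 groups only, adjusted p, DESeq2 1.42.0 and omission of each library. Other software was R 4.3.3, Python 3.11.15, pandas 2.3.3, numpy 2.4.6, matplotlib 3.10.9 and scipy 1.17.1.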

Additional observations from a re-analysis of the deposited data

Results flagged for a closer look

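The interaction term of edgeR for Ccl17 had a value of -6.24 on the log2 scale (adjusted p = 1, unadjusted p under 0.05). It passed the unadjusted threshold, as did 2.82% of all tested genes. Ccl17 was higher than every Con library in 3 of 3 BLM libraries, whereas 2 of 3 KOBLM libraries lay within the range of KO. The interaction kept its sign in all 18 alternatives and missed the threshold in 1 of them, the omission of BLM 2. BLM 2 and BLM 1, the libraries with most Ccl17, had dendritic cell marker sums of 586 and 305 CPM. Their recruited macrophage sums were 8502 and 8432 CPM. BLM 3 also had a dendritic cell sum of 305 CPM, with Ccl17 at 35.7 TMM CPM. KO 2 had a recruited macrophage sum of 13242 CPM, with Ccl17 at 48.2 TMM CPM. The part of these cells was not tested. Groups of 3 are too small for a search for outlying libraries.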

How the results depend on the processing

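The number of members passing the threshold changed with the processing in every comparison. The test is that of edgeR unless DESeq2 is named. Where it did, the cause was not tested beyond the libraries named here. For BLM against Con (2 members) it was 1 with a model of 2 groups only, 4 with DESeq2, 3 without the low-count filter, 3 with the replicate number as a block, 0 with an adjusted p in edgeR (2 in DESeq2), and 1 (without Con 1 or Con 2) to 4 (without BLM 3) on omission of 1 library. For KOBLM against BLM (1 member) it was 2 without the low-count filter, 2 with DESeq2, 0 with an adjusted p in either tool, and 0 (without BLM 2, KOBLM 2 or KOBLM 3) to 2 (without BLM 3). For KO against Con (1 member) it was 2 without the filter, 0 with 2 groups only, 0 with an adjusted p in edgeR (1 in DESeq2, Ccl8), and 0 (without Con 1 or KO 3) to 1. The member that passed was not always Ccl8, but Ccl17 without Con 2 and Ccl9 without Con 3. Over all genes, 188 of 13054 passed for KO against Con in the main fit and 229 of 17480 without the filter. For KOBLM against KO (0 members) it was 0 to 1 (without KO 2 or KO 3, beside 180 of 14038 and 105 of 14161 genes). For the interaction (1 member) it was 3 with DESeq2, 0 with an adjusted p in edgeR (1 in DESeq2, Ccl8), and 0 (without BLM 2) to 3 (without BLM 3). An alternative chosen after seeing the data kept the 2 libraries of each group with the most genes (without Con 3, BLM 3, KO 3 and KOBLM 2). It gave 5 members for BLM against Con, beside 1370 of 13841 genes, and 3 for KOBLM against BLM, beside 792 genes. It gave 3 members for KO against Con (593 genes), 1 for KOBLM against KO (579 genes) and 3 for the interaction (861 genes). In the models of 2 groups only, Ccl8 did not pass the low-count filter against Con and has no value. Both other scalings left all 5 counts as they were. Calls over all genes moved as well. For BLM against Con they were 558 of 13054 in the main fit, 947 with DESeq2 and 394 with the block. They were 771 of 17480 without the filter, 380 of 11595 with 2 groups only and 767 of 14084 without BLM 3. For KOBLM against BLM, 413 of 13054 passed in the main fit, 755 with DESeq2 and 645 of 17480 without the filter. For the interaction, 368 of 13054 passed in the main fit, 625 with DESeq2 and 652 of 14084 without BLM 3.

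Same-numbered libraries showed little correlation of their deviations across genes. Over 18 pairs the correlation of their deviations from the group means ran from -0.13 to 0.087. Replicate 3 had the fewest detected genes in Con (10246), BLM (6847) and KO (8790), and replicate 2 in KOBLM (9018). Whether same-numbered libraries were sorted or prepared together was not tested. With the replicate number as a block, 0 members passed for KOBLM against BLM and 0 for KO against Con, beside 262 and 100 of 13054 genes. In that fit 3 differences changed sign, those of Ccl24 for KOBLM against BLM (1.04), of Ccl22 for KO against Con (-0.31) and of Ccl22 in the interaction (0.29).

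Of 45 log2 fold changes, 25 changed sign under no alternative, among them the 3 of Ccl17 and the 2 of Ccl8 that passed, although the value of Ccl8 for KO against Con fell to 0.00 without KO 3. No difference under 0.05 was given a direction. The other 20, none of which passed, changed sign in at least 1 alternative. With 2 libraries per group, Ccl6 gave 0.45 for BLM against Con, -0.25 for KOBLM against BLM, 0.084 for KO against Con and -0.33 in the interaction, and the interactions of Ccl3 (-1.29) and Ccl4 (-1.23) turned. On omission of 1 library, BLM against Con ran from -0.43 to 1.16 for Ccl3, from -0.14 to 2.09 for Ccl22 and from -5.91 to 9.29 for Ccl24. KOBLM against BLM ran from -0.086 to 1.24 for Ccl3, from -1.23 to 1.56 for Ccl22 and from -1.86 to 8.97 for Ccl24. KO against Con ran from -0.61 to 1.10 for Ccl3, from -0.56 to 3.87 for Ccl4, from -0.85 to 0.19 for Ccl6, from -0.24 to 0.67 for Ccl22 and from -2.98 to 7.56 for Ccl24. KOBLM against KO ran from -0.13 to 0.97 for Ccl9 and from -0.16 to 6.05 for Ccl24. The interaction ran from -0.60 to 1.13 for Ccl3, from -0.77 to 3.78 for Ccl4, from -1.38 to 1.41 for Ccl22 and from -7.91 to 7.29 for Ccl24.

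With 3 mice per group, the biological coefficient of variation was 1.44. With 1 library per mouse, this spread does not separate mice from sorting or library quality. What limited the comparisons of Ccl3, Ccl4, Ccl5, Ccl6, Ccl9, Ccl17 and Ccl22 was not tested. Ccl8, Ccl20 and Ccl24 were at or near the detection floor in several libraries.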
